A study of Mus musculus with 12 samples.

Results

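The mouse mitochondrial genome encodes 37 genes, and all of them were listed in the expression tables of adult neural stem/progenitor cells (aNSPCs). They were taken as every gene whose name starts with mt-, which gave 37 of 55401 genes, made up of 13 mRNAs, 2 rRNAs and 22 tRNAs. RNA-seq values, as fragments scaled for gene length and for the number of mapped fragments (FPKM), were given for 12 samples in 4 groups of 3. The cells came from the forebrains of C57BL/6 mice aged 8 to 10 weeks and were grown either under proliferating conditions, with EGF and FGF-2, or under differentiation conditions, which in the methods use 1 µM retinoic acid and 5 µM forskolin. Under each condition a Ctrl group was set against a group exposed to NAD+, at 1 mM, and how long the cells for RNA-seq were exposed is not given clearly in the sources used here. All 12 samples share strain, tissue and age range. The study describes the samples of a group as biological repeats, while the labels do not say whether they came from separate mice or separate cultures, and the p-values measure the spread between these samples. A treatment field in the labels reads untreated for all 12 samples, so the groups follow the sample titles, in which p or D gives the condition and ctrl or NAD the exposure.

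Mitochondrial DNA is read on both strands into long transcripts that span many genes, and most mRNAs and rRNAs are released when the tRNAs between them are cut out. The mRNAs encode membrane subunits of the respiratory chain and the ATP synthase, the rRNAs form the mitochondrial ribosome, and the tRNAs serve translation inside the organelle. Complex I, for which 7 of the 37 genes encode subunits, oxidises NADH to NAD+ and pumps protons. NAD+ is also the agent added here, and whether it acted on complex I was not tested. In the annotation (GENCODE M21, GRCm38, the build mm10 that the submitters name), 28 of the 37 genes lie on the plus strand of the mitochondrial chromosome (M) and 9 on the minus strand, namely mt-Nd6 and 8 tRNAs.

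The sequences below are shown because they bear on how reads can be assigned. The coding sequences of mt-Atp8 and mt-Atp6 share 43 bases at M:7927-7969 on the plus strand, here with the first codon of mt-Atp6 and the last bases of mt-Atp8 in capitals.
mt-Atp8/mt-Atp6 overlap: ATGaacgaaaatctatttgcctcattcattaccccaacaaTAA
The nuclear pseudogene Gm10925, at 1:24613974-24614651 on the minus strand, is identical to mt-Atp6 over 678 aligned bases of 681, with 0 mismatches, so that a read from most of this gene has 2 identical places in the genome. The ends of both are shown, with the bases of mt-Atp6 past the end of the copy in capitals, from M:8548-8607 on the plus strand and 1:24613974-24614030 on the minus strand.
mt-Atp6: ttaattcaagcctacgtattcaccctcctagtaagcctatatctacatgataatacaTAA
Gm10925: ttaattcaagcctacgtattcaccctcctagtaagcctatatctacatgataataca
The tRNA genes mt-Ty (M:5260-5326, minus strand), which had the highest fold between states, and mt-Te (M:14071-14139, minus strand), which had the lowest adjusted p for NAD+ exposure under differentiation conditions, are given 5′ to 3′ of the tRNA.
mt-Ty: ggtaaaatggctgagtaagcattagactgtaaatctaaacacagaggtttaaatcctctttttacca
mt-Te: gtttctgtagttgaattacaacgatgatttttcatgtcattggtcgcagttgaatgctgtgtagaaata
With 67 and 69 bases, such genes are short, and their FPKM rests on few bases. The sources do not say whether counting used the strand, so reads of a gene and of a transcript running over it on the other strand cannot be told apart.

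The FPKM values, rounded to 0.01, carry no read counts, and the sequencing depth behind each sample is not known here. Markers of neural stem/progenitor cells were present, with Sox2 at a mean of 225 FPKM in the proliferating Ctrl group and 147 in the differentiation Ctrl group, and Mki67, a proliferation marker, went from 33.1 ± 11.6 to 0.587 ± 0.138 (SD, n = 3 each). The astrocyte marker Gfap stood at 19.0 ± 1.39 and 595 ± 48.1 FPKM in the same groups and at 977 ± 18.8 in the differentiation NAD+ group. S100b, another astrocyte marker, was lower under differentiation conditions, at 163 ± 15 and 94.8 ± 0.487 in the same Ctrl groups. The 8 astrocyte markers, Gfap included, summed to medians of 1154 and 1715 in proliferating and differentiation Ctrl. In proliferating and differentiation NAD+ these medians were 928 and 2041. Of 7 microglia/macrophage markers, 5 stayed under 0.1 FPKM in every sample, among them Aif1, Cx3cr1 and Tmem119, and the sum of the 7 was at most 0.37. The 7 endothelial/mural markers summed to at most 1.64, with Pecam1, Cdh5 and Cldn5 under 0.1 in every sample, and the 5 erythroid markers to at most 1.36. The 9 neuron markers summed to between 23.4 and 36.1, the 8 astrocyte markers to between 911 and 2108, the 9 oligodendrocyte lineage markers to between 344 and 1379, and the 4 ependymal markers to between 9.01 and 30.2. The 10 neural stem/progenitor markers summed to medians of 2685, 2010, 816 and 829, and the 6 proliferation markers to 230, 269, 21.4 and 23.0, in proliferating Ctrl, proliferating NAD+, differentiation Ctrl and differentiation NAD+. Replicate 1 of both proliferating groups stood apart in RNAs that carry no long poly(A) tail, such as Rn7sk, Rmrp and Rpph1. The 13 RNAs of that kind summed to 927 FPKM in Ctrl replicate 1 and 305 in NAD+ replicate 1, against 9.80 to 24.0 in the other 4 proliferating samples and 12.1 to 66.1 under differentiation conditions. The part of this difference in the values below was not tested, and the counts without both samples are given beside them.

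The first question was how much of the measured RNA the mitochondrial genes made up in each state. Under proliferating conditions the 37 genes took 19.9%, 18.0% and 17.7% of the summed FPKM in the Ctrl samples and 18.0%, 16.45% and 17.8% in the NAD+ samples. Under differentiation conditions they took 28.9%, 29.8% and 28.9% in Ctrl and 33.2%, 29.5% and 31.4% in NAD+. All 6 differentiation samples were above all 6 proliferating samples, and the difference, averaged over the treatments, was 12.3 percentage points (exact permutation test of the states within treatment, two-sided, p = 0.005, the smallest its 400 regroupings allow). It was 10.7 points in Ctrl and 14.0 in NAD+. Without both replicates 1 of the proliferating groups the difference was 12.8 points (exact permutation, p = 0.01). The states lie in separate deposited tables, so that state and table cannot be told apart, and in such bulk samples fewer cells of a type and less RNA per cell cannot be told apart either. Weighted by annotated gene length, which puts the shares closer to shares of fragments, the means were 6.52% ± 0.965 and 10.9% ± 0.237 in proliferating and differentiation Ctrl, and 5.89% ± 0.292 and 12.3% ± 0.938 in NAD+ (SD, n = 3 each), a difference of 5.36 points between states.

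NAD+ exposure moved the share by less than the state did. The mean went from 18.5% ± 1.18 to 17.4% ± 0.836 under proliferating conditions, a difference of -1.10 points with overlapping groups (exact permutation, two-sided, p = 0.5), and from 29.2% ± 0.507 to 31.4% ± 1.84 under differentiation conditions, a difference of 2.19 points, again with overlap (p = 0.2, exact; 3 samples against 3 cannot go below 0.1). With 1 sample left out at a time, the proliferating difference ran from -1.51 to -0.417 points, the latter without Ctrl replicate 1 and -0.618 without NAD+ replicate 2, and the differentiation difference from 1.29, without NAD+ replicate 1, to 3.13. Leaving out mt-Atp6 took the proliferating difference to -0.0776 points (exact p = 1) and the differentiation difference to 2.81 points, where the groups no longer overlapped (Ctrl at most 28.5%, NAD+ at least 29.1%, exact p = 0.1). Weighting each gene by its length also separated the differentiation groups, at 1.41 points (exact p = 0.1), and the proliferating difference was then -0.622 points (exact p = 0.4). By class, the mRNAs made up nearly all of the share, with means of 18.0%, 16.8%, 28.1% and 29.8% in proliferating Ctrl, proliferating NAD+, differentiation Ctrl and differentiation NAD+. Under proliferating conditions the mRNA share differed by -1.23 points, narrowly without overlap (NAD+ at most 17.21%, Ctrl at least 17.25%, exact permutation, p = 0.1). Under differentiation conditions it differed by 1.76 points with overlap (exact p = 0.2). The tRNAs went from 0.299% ± 0.0165 in Ctrl and 0.390% ± 0.0802 in NAD+ under proliferating conditions to 0.876% ± 0.0387 and 1.21% ± 0.101 under differentiation conditions (SD, n = 3 each). In both states all 3 NAD+ samples were above all 3 Ctrl samples in the tRNA share (exact permutation, p = 0.1 each). Under proliferating conditions NAD+ replicate 1 was the high sample, at 0.481% against 0.329% and 0.359% in NAD+ and 0.290% to 0.319% in Ctrl. Without it the difference fell from 0.0903 to 0.0448 points. The rRNA share was 0.287%, 0.156% and 0.140% in proliferating Ctrl, with replicate 1 high, and 0.203%, 0.237% and 0.272% in differentiation Ctrl.

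**Figure D1:**
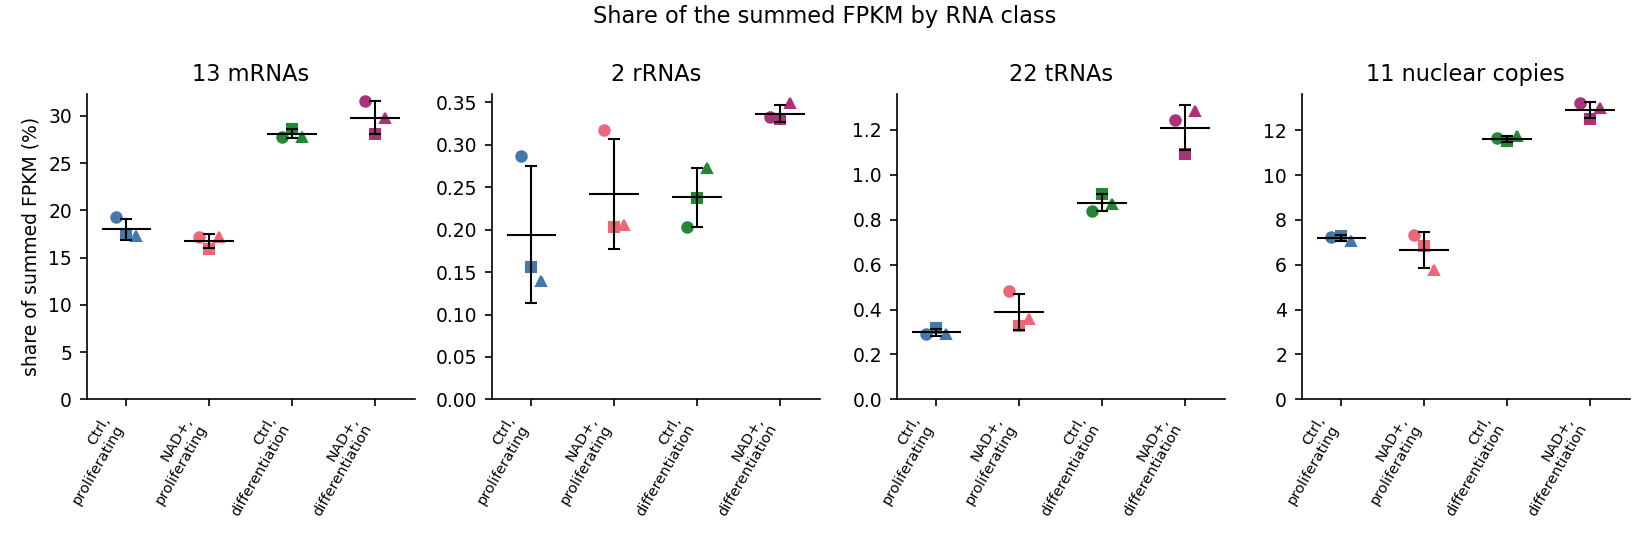
Share of the summed FPKM (%, y axis) in the 13 mRNAs, 2 rRNAs, 22 tRNAs and 11 annotated nuclear copies, with 1 point per sample (circle, square and triangle for replicates 1, 2 and 3), the mean as a line and the SD as a bar. The mRNA, tRNA and copy shares of all 6 differentiation samples lie above those of all 6 proliferating samples, while the rRNA shares overlap.

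Next, each gene was compared between states and between Ctrl and NAD+ with limma on log2(FPKM + 0.1), adjusted by the Benjamini-Hochberg method over all genes tested and called at an adjusted p under 0.05. A fold change on this scale slightly understates the change of low genes. Between states, 19 of the 37 genes were called higher and 2 lower under differentiation conditions in Ctrl, where 25.0% and 31.6% of all 19498 genes tested were called higher and lower. In NAD+, 24 were called higher and 0 lower, against 20.8% and 37.6% of all genes. The means of the 2 comparisons use separate samples, but both share 1 estimate of spread from all 12 samples, so their calls are not independent. Without both proliferating replicates 1 the counts were 24 and 1 in Ctrl and 27 and 0 in NAD+. The median log2 change was 0.78 and 1.01 for the 37 genes, and -0.06 and -0.20 for all genes tested. Median-ratio scaling moved the latter to 0.06 and 0.05 and the calls over all genes in NAD+ from 4050 higher and 7336 lower to 5614 and 5388.

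The order of the mRNA levels, which FPKM gives per length, was led by mt-Co1 in all 4 groups. In proliferating Ctrl it was mt-Co1, mt-Cytb, mt-Co2, mt-Atp8, mt-Nd1, mt-Atp6, mt-Co3, mt-Nd2, mt-Nd4, mt-Nd4l, mt-Nd5, mt-Nd6 and mt-Nd3, where only the steps after mt-Co1, mt-Nd4 and mt-Nd6 had no overlap between neighbours. In differentiation Ctrl, mt-Nd5, mt-Nd4 and mt-Nd6 stood directly after mt-Co1, mt-Cytb, mt-Co2 and mt-Atp8, followed by mt-Co3, mt-Atp6, mt-Nd1, mt-Nd4l, mt-Nd2 and mt-Nd3. There, neighbours from mt-Nd5 to mt-Nd4l overlapped, and the others did not. In proliferating NAD+, mt-Atp6 was last, with all values below those of mt-Nd3.

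The complex I subunits encoded by these genes belong to the membrane arm of the NADH dehydrogenase, and their mRNAs split between states. mt-Nd5 (M:11742-13565, plus strand), a proton-pumping subunit, stood at 2429.7, 2230.4 and 2284 FPKM in proliferating Ctrl, 2820.2, 2314 and 2406 in proliferating NAD+, 5622, 6270.3 and 6009.8 in differentiation Ctrl and 7841, 6988 and 7103 in differentiation NAD+. Its state groups did not overlap, with a log2 change of 1.37 ± 0.12 (SE) in Ctrl (limma adjusted p = 2.83e-06) and 1.54 in NAD+. mt-Nd6, the only mRNA of the minus strand, was at 2381, 1772 and 1852 in proliferating Ctrl, 2306, 1876 and 2013 in proliferating NAD+, 5587, 5469 and 5443 in differentiation Ctrl and 7099, 6412 and 6828 in differentiation NAD+. Its log2 change of 1.47 in Ctrl and 1.72 in NAD+ was the highest among the mRNAs. mt-Nd4, another pumping subunit, went from 3806, 2633 and 2609.8 to 5542, 5759 and 5959 in Ctrl and from 2793, 2356 and 2533 to 7172, 6458 and 6824 in NAD+, with log2 changes of 0.95 and 1.42. Its small partner mt-Nd4l, which overlaps it by 7 bases, went from 2573, 2436 and 2366 to 4105, 4200.0 and 4088 in Ctrl and from 2696, 2026 and 2332 to 5196, 4306 and 4641 in NAD+, with log2 changes of 0.75 and 1.01. All 4 of these genes rose in both comparisons without overlap between the states.

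The 3 remaining complex I genes changed less. mt-Nd1, which helps form the quinone site, was at 6584, 5052 and 5384 FPKM in proliferating Ctrl, 5712, 5514 and 5653 in proliferating NAD+, 4199, 4427 and 4504 in differentiation Ctrl and 5539, 4889 and 5386 in differentiation NAD+. It fell by 0.37 on the log2 scale between states in Ctrl (limma adjusted p = 0.0319), a call that was lost without proliferating Ctrl replicate 1, without replicate 3 of that group, without any of the differentiation Ctrl samples, with no filter on low values, with median-ratio scaling and with scaling to nuclear genes, and in NAD+ its groups overlapped (-0.10, adjusted p = 0.551). mt-Nd2, a pumping subunit, was at 3689, 2799 and 2913 in proliferating Ctrl, 3347, 2829 and 2932 in proliferating NAD+, 3394, 3435 and 3603 in differentiation Ctrl and 4483, 3967 and 4349 in differentiation NAD+. It was called only in NAD+, at 0.49 (adjusted p = 0.00723), against 0.16 in Ctrl (adjusted p = 0.319), and without proliferating Ctrl replicate 1 the Ctrl value was 0.28 and was called. The difference between these 2 effects did not pass (interaction 0.33, limma adjusted p = 0.409). mt-Nd3 had the lowest values of the group in every sample, at 1599, 1314 and 1359.9 in proliferating Ctrl, 1172, 1171 and 1443 in proliferating NAD+, 1318, 1439.5 and 1456 in differentiation Ctrl and 1778, 1471 and 1759 in differentiation NAD+. The state difference of mt-Nd3 was -0.02 in Ctrl (adjusted p = 0.924) and 0.41 in NAD+ (adjusted p = 0.0149), the latter lost without proliferating NAD+ replicate 2, without differentiation NAD+ replicate 1 or 3, with no filter on low values and with quantile normalization.

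mt-Cytb encodes cytochrome b, the mitochondrial subunit of complex III. It was at 9285, 6594 and 6774 FPKM in proliferating Ctrl, 6330.2, 5920.2 and 5888 in proliferating NAD+, 9721, 10214 and 10457 in differentiation Ctrl and 12856, 11419 and 12509 in differentiation NAD+. The states did not overlap, at 0.44 in Ctrl (limma adjusted p = 0.0342) and 1.02 in NAD+ (adjusted p = 0.000211). The Ctrl call was kept in 16 of 24 alternatives. It was lost, among others, without replicate 2 or 3 of the proliferating Ctrl group or any differentiation Ctrl sample. With scaling to the mitochondrial mRNAs other than mt-Atp6 the Ctrl change turned to -0.22.

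The 3 complex IV mRNAs encode the catalytic core of cytochrome c oxidase, and all rose between states. mt-Co1, whose protein holds the oxygen-reducing site, was at 13188, 11082 and 10849 FPKM in proliferating Ctrl, 11741, 10883 and 11323 in proliferating NAD+, 22476, 23767 and 23716 in differentiation Ctrl and 26568, 22969.9 and 25359 in differentiation NAD+. It made up 19.7% of the summed mRNA values in proliferating Ctrl and 25.5% in differentiation Ctrl, and its log2 change was 1.00 ± 0.16 in Ctrl (limma adjusted p = 0.00033) and 1.14 in NAD+. mt-Co2, which takes electrons from cytochrome c, was at 8196, 5595 and 5744 in proliferating Ctrl, 5666, 5394 and 6110.1 in proliferating NAD+, 8837, 9326 and 9604 in differentiation Ctrl and 10777, 9373 and 9668 in differentiation NAD+, with log2 changes of 0.53 and 0.80. The Ctrl call of mt-Co2 was kept in 17 of 24 alternatives and lost, beside quantile normalization and scaling to the other mitochondrial mRNAs, with no filter on low values and without replicate 2 or 3 of either Ctrl group. mt-Co3, the third core subunit, was at 4363, 3408 and 3414 in proliferating Ctrl, 3429, 3265 and 3939.9 in proliferating NAD+, 5104, 5377 and 5839 in differentiation Ctrl and 6068, 5781 and 6281 in differentiation NAD+, with log2 changes of 0.55 and 0.77. The direction of mt-Co2, mt-Co3, mt-Atp8 and mt-Nd2 flipped with quantile normalization, which ties these top-ranked genes to fixed values, and with scaling to the sum of the mitochondrial mRNAs other than mt-Atp6. On the second of these scales mt-Cytb (-0.22) turned in Ctrl as well, and mt-Nd3 (-0.53), mt-Rnr2 (-0.23) and mt-Tl1 (-0.48) in NAD+. There mt-Nd4, mt-Nd5 and mt-Nd6 stayed higher under differentiation conditions, at 0.29, 0.71 and 0.81 in Ctrl and 0.48, 0.61 and 0.78 in NAD+, each called.

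**Figure D2:**
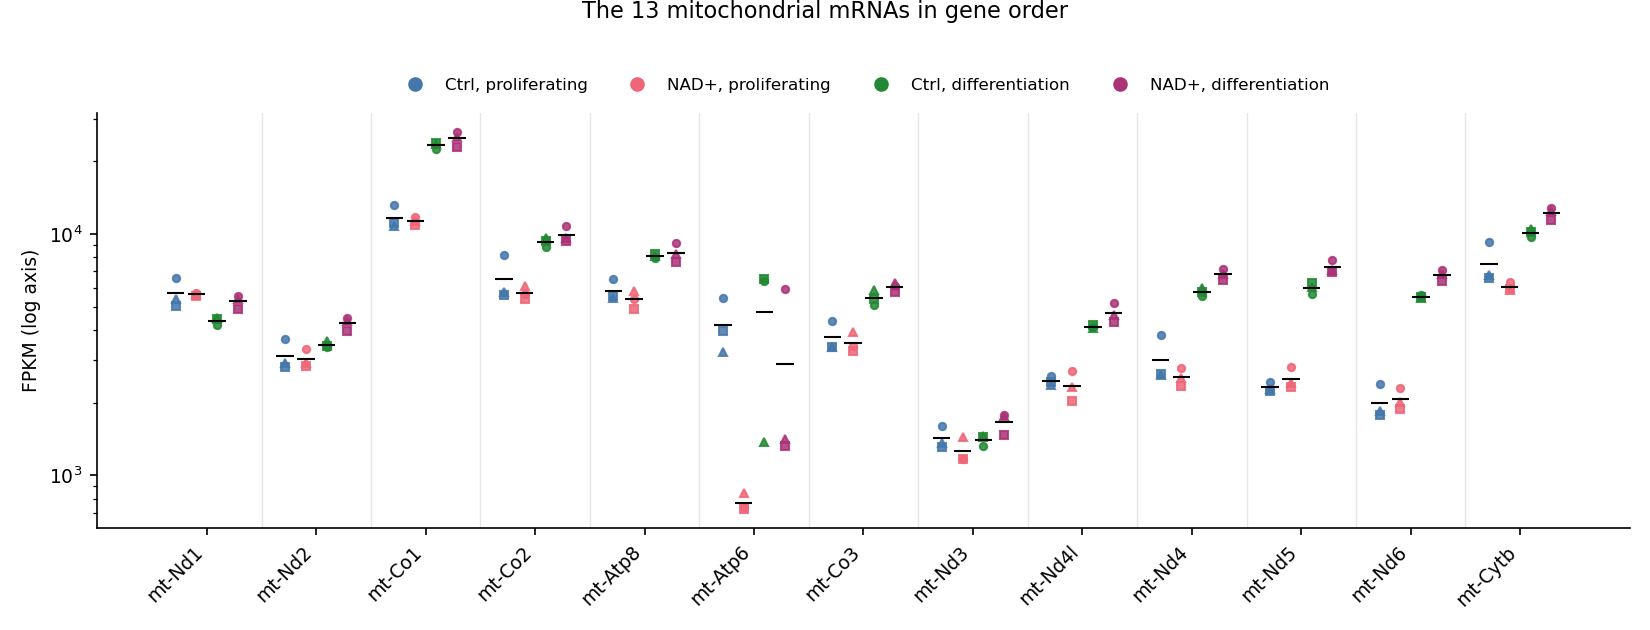
FPKM (log axis) of the 13 mitochondrial mRNAs in gene order, with 1 point per sample, colours for the 4 groups, circle, square and triangle for replicates 1, 2 and 3, and a line at each group mean. Replicates lie close together for every mRNA except mt-Atp6, whose differentiation groups hold 3 values from 5930.5 to 6495 and 3 from 1322 to 1416.

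The ATP synthase genes mt-Atp8 and mt-Atp6 overlap on the same strand with no tRNA gene between them, yet their values did not move together. Whether these values stand for separate transcripts was not tested. mt-Atp8, a small subunit of the membrane part, was at 6537, 5541 and 5415 FPKM in proliferating Ctrl, 5393, 4883 and 5816 in proliferating NAD+, 7947, 8301 and 8137 in differentiation Ctrl and 9159, 7682 and 8301 in differentiation NAD+. It rose between states in Ctrl (0.48, limma adjusted p = 0.0111) and in NAD+ (0.64). mt-Atp6 encodes subunit a, which forms the path of the protons. Its values were 5424, 3959 and 3243 FPKM in proliferating Ctrl and 740.1, 724 and 843 in proliferating NAD+. Under differentiation conditions they were 6364, 6495 and 1375 in Ctrl and 5930.5, 1322 and 1416 in NAD+. The proliferating groups did not overlap, whereas each differentiation group held both high and low samples, 2 high and 1 low in Ctrl and 1 high and 2 low in NAD+. Its state difference was -0.10 ± 0.64 in Ctrl (limma adjusted p = 0.91) and 1.54 ± 0.64 in NAD+ (adjusted p = 0.0601), neither called.

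The spread of mt-Atp6 between replicates was compared with that of its neighbours along the genome. The residual SD of log2(FPKM + 0.1) around the group means, over the 12 samples with 8 degrees of freedom, was 0.91 for mt-Atp6. It was 0.17 for mt-Co2 on its left, 0.12 for mt-Atp8 and 0.14 for mt-Co3 on its right. The other 12 mRNAs lay between 0.10 and 0.17 with a median of 0.14, so that the SD of mt-Atp6 was 6.67 times that median. Among 288 nuclear genes with a mean of at least 100 FPKM, 98.3% had a smaller SD than mt-Atp6, and their median was 0.13. mt-Tk, the tRNA between mt-Co2 and mt-Atp8, had an SD of 0.75 at values of 1.63 to 13.01 FPKM. Within a group the highest mt-Atp6 value was 1.67 times the lowest in proliferating Ctrl, 1.16 times in proliferating NAD+, 4.72 times in differentiation Ctrl and 4.49 times in differentiation NAD+. For the other 12 mRNAs this ratio was at most 1.46 in any group. The value of 6.67 became 10.5 without proliferating Ctrl replicate 1, 4.89 without differentiation Ctrl replicate 3, and lay between these without any other single sample.

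The copy of mt-Atp6 in the nuclear genome showed a smaller difference. Gm10925 was at 5220.1, 4452 and 4355 FPKM in proliferating Ctrl, 4284, 4064 and 3461 in proliferating NAD+, 6598, 6533 and 6597 in differentiation Ctrl and 7496, 6674 and 7073 in differentiation NAD+. It was lower in all 3 proliferating NAD+ samples than in any Ctrl sample, with means of 3936 and 4676, and the difference of -0.25 on the log2 scale was not called (limma adjusted p = 0.494). Its differentiation groups showed no split. The ratio of mt-Atp6 to Gm10925 ran from 0.745 to 1.04 in proliferating Ctrl and from 0.173 to 0.244 in proliferating NAD+. Under differentiation conditions it was 0.965, 0.994 and 0.208 in Ctrl and 0.791, 0.198 and 0.200 in NAD+. The methods state that only uniquely mapped reads were used. A read lying wholly within Gm10925 has an identical place in mt-Atp6, yet Gm10925 held 3461 to 7496 FPKM. How such reads were handled is not given further in the sources used here. The division of values between mt-Atp6 and Gm10925 can therefore not be taken as the origin of the reads. Summed with Gm10925, mt-Atp6 had means of 8885 ± 1577 and 4705 ± 367 in proliferating Ctrl and NAD+ and 11321 ± 2900 and 9970 ± 3003 in differentiation Ctrl and NAD+ (SD, n = 3 each), and the ratio of spreads fell from 6.67 to 2.35.

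**Figure D3:**
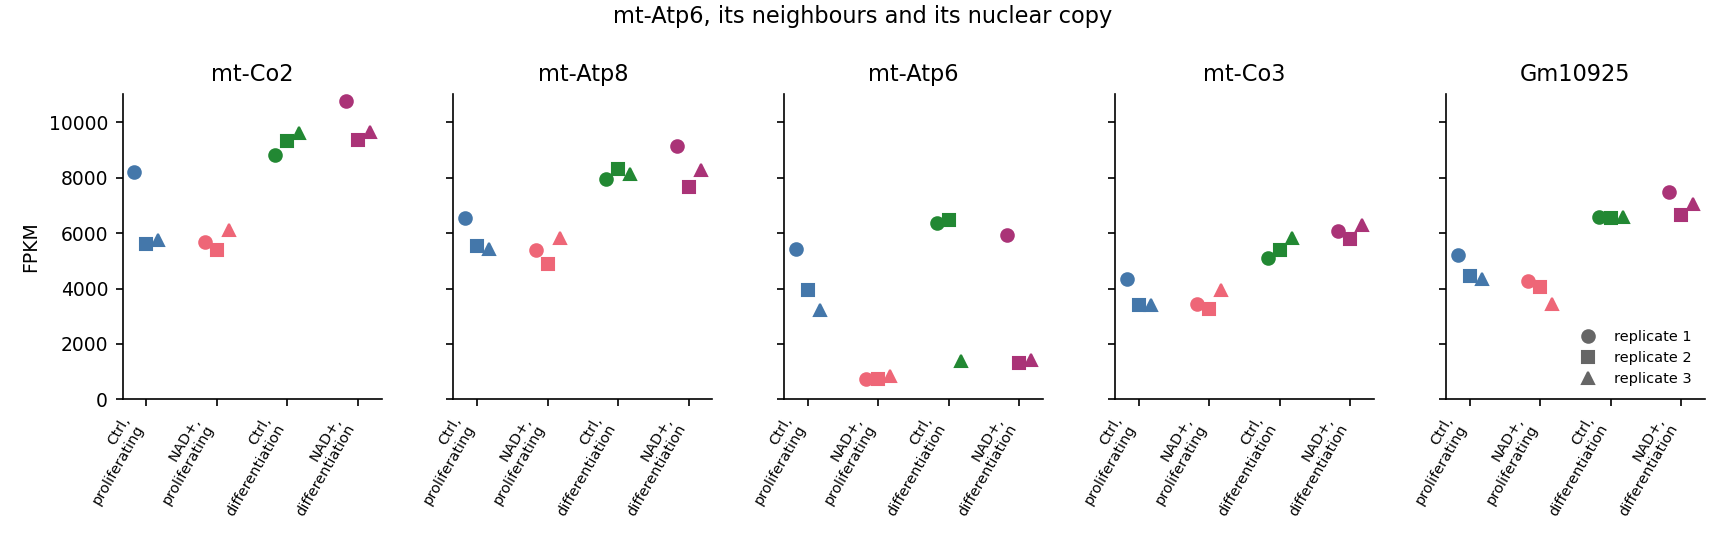
FPKM (linear axis from 0) of mt-Atp6 between its neighbours mt-Co2, mt-Atp8 and mt-Co3, and of its nuclear copy Gm10925, with 1 point per sample and 4 groups on the x axis. mt-Atp6 falls by 2.42 on the log2 scale in the 3 proliferating NAD+ samples, where Gm10925 is also below every Ctrl sample (-0.25), and it splits within both differentiation groups, where Gm10925 stays between 6533 and 7496.

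The other nuclear copies bear on the remaining mRNAs. Annotated nuclear pseudogenes that match a mitochondrial mRNA over at least 100 bases at 95% identity or more numbered 11 and matched 9 of the 13 mRNAs. Of the 7 in a cluster on chromosome 1, 4 that match nearly the whole of their gene carried values close to it. mt-Co2 over Gm28661 (681 aligned bases, 0 mismatches) ran from 1.01 to 1.39 over the 12 samples, mt-Co3 over Gm28437 (783 bases, 0 mismatches) from 1.00 to 1.40, mt-Nd3 over Gm28438 (345 bases, 1 mismatch, T3C, counted from the first base of mt-Nd3, mt-Nd3 base first) from 1.00 to 1.36 and mt-Nd4l over Gm10222 (294 bases, 0 mismatches) from 0.994 to 1.36. The base that differs in mt-Nd3 (M:9459-9481, plus strand) and Gm28438 (1:24613097-24613119, minus strand) is in capitals.
mt-Nd3: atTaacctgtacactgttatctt
Gm28438: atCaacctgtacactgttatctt
Proliferating NAD+ replicate 3 held the highest ratio of all 4 pairs, at 1.36 to 1.40. mt-Nd4 over Gm28439, which matches its first 876 bases, ran from 1.41 to 1.78, and mt-Co1 over Gm29216, which matches its last 483 bases with the difference A1066T in mt-Co1 numbering, from 2.33 to 3.80. Copies with more differences were far lower: mt-Co1 was at least 348 times Gm13340 (97.6% identity), mt-Co2 at least 104 times Gm13341 (95.9%), mt-Nd2 at least 269 times Gm13339 (96.7%) and mt-Nd5 at least 2041 times Gm4076 (95.2%). The 11 copies took 7.20% ± 0.123 of the summed FPKM in proliferating Ctrl, 6.65% ± 0.790 in proliferating NAD+, 11.6% ± 0.123 in differentiation Ctrl and 12.9% ± 0.361 in differentiation NAD+. With each copy added to the gene it matches, weighted by length, the number of mitochondrial genes called higher between states was 19 in Ctrl and 25 in NAD+.

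The NAD+ comparison under proliferating conditions gave 1 called member, mt-Atp6. Of the 37 genes 0 were called higher and 1 lower, where 0.0484% and 0.0968% of the 18597 genes tested were called. mt-Atp6 fell by 2.42 on the log2 scale (SE 0.20, limma adjusted p = 0.0266), lower in all 3 NAD+ samples than in any Ctrl sample. The call was kept without Ctrl replicate 1 (adjusted p = 0.0401) and lost without any of the other 5 samples, at adjusted p from 0.0759 to 0.173, and without both replicates 1 (0.0518). In each of these fits with samples left out where it was lost, at most 1 gene was called higher and at most 1 lower over all genes tested. With all samples these counts were 9 and 18, and without Ctrl replicate 1 they were 14 and 22. The call was also lost with no filter on low values (adjusted p = 0.0553), where 1 gene was called higher and 8 lower over all genes. With nuclear copies added, Gm10925 among them, the change was -0.91 (adjusted p = 0.118). There 9 genes were called higher and 17 lower over all genes. None of the other mRNAs passed, with log2 changes from -0.30 for mt-Cytb to 0.11 for mt-Nd5, and at an unadjusted p under 0.05 the mRNAs likewise held 1 gene, mt-Atp6. Counting genes whose groups do not overlap, 4 were higher and 7 lower in NAD+, against 15.5% and 8.59% of all genes tested. The 7 lower ones were mt-Atp6, mt-Cytb and the tRNA genes mt-Tl1, mt-Ti, mt-Tm, mt-Tw and mt-Tp, the last 5 at -0.29, -0.40, -0.75, -0.34 and -0.40 (adjusted p = 0.244, 0.176, 0.251, 0.233 and 0.158). The 4 higher ones, a smaller share than among all genes, were the tRNA genes mt-Ta, mt-Tn, mt-Tc and mt-Ty, at 0.67, 0.70, 0.54 and 0.30 (adjusted p = 0.141, 0.141, 0.176 and 0.298).

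Under differentiation conditions NAD+ exposure went with higher values of several rRNA and tRNA genes. Of the 37 genes 5 were called higher and 0 lower, where 2.27% and 4.65% of the 19611 genes tested were called. With median-ratio scaling 6 were called higher and 0 lower, and the calls over all genes went from 445 higher and 912 lower to 613 and 532. The groups did not overlap for 18 genes, all higher in NAD+, against 9.68% of all genes higher and 21.1% lower. The median log2 change of the 37 genes was 0.29, and that of all genes tested was -0.08. None of the 13 mRNAs was called (limma), although 7 had an unadjusted p under 0.05 and 8 did not overlap, among them all 7 of complex I, at 0.19 to 0.30. The lowest adjusted p of the mRNAs was 0.0673, for mt-Nd6 (0.30 ± 0.08). mt-Atp6 differed by -0.79 ± 0.81 (adjusted p = 0.603), with overlapping groups.

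**Figure D4:**
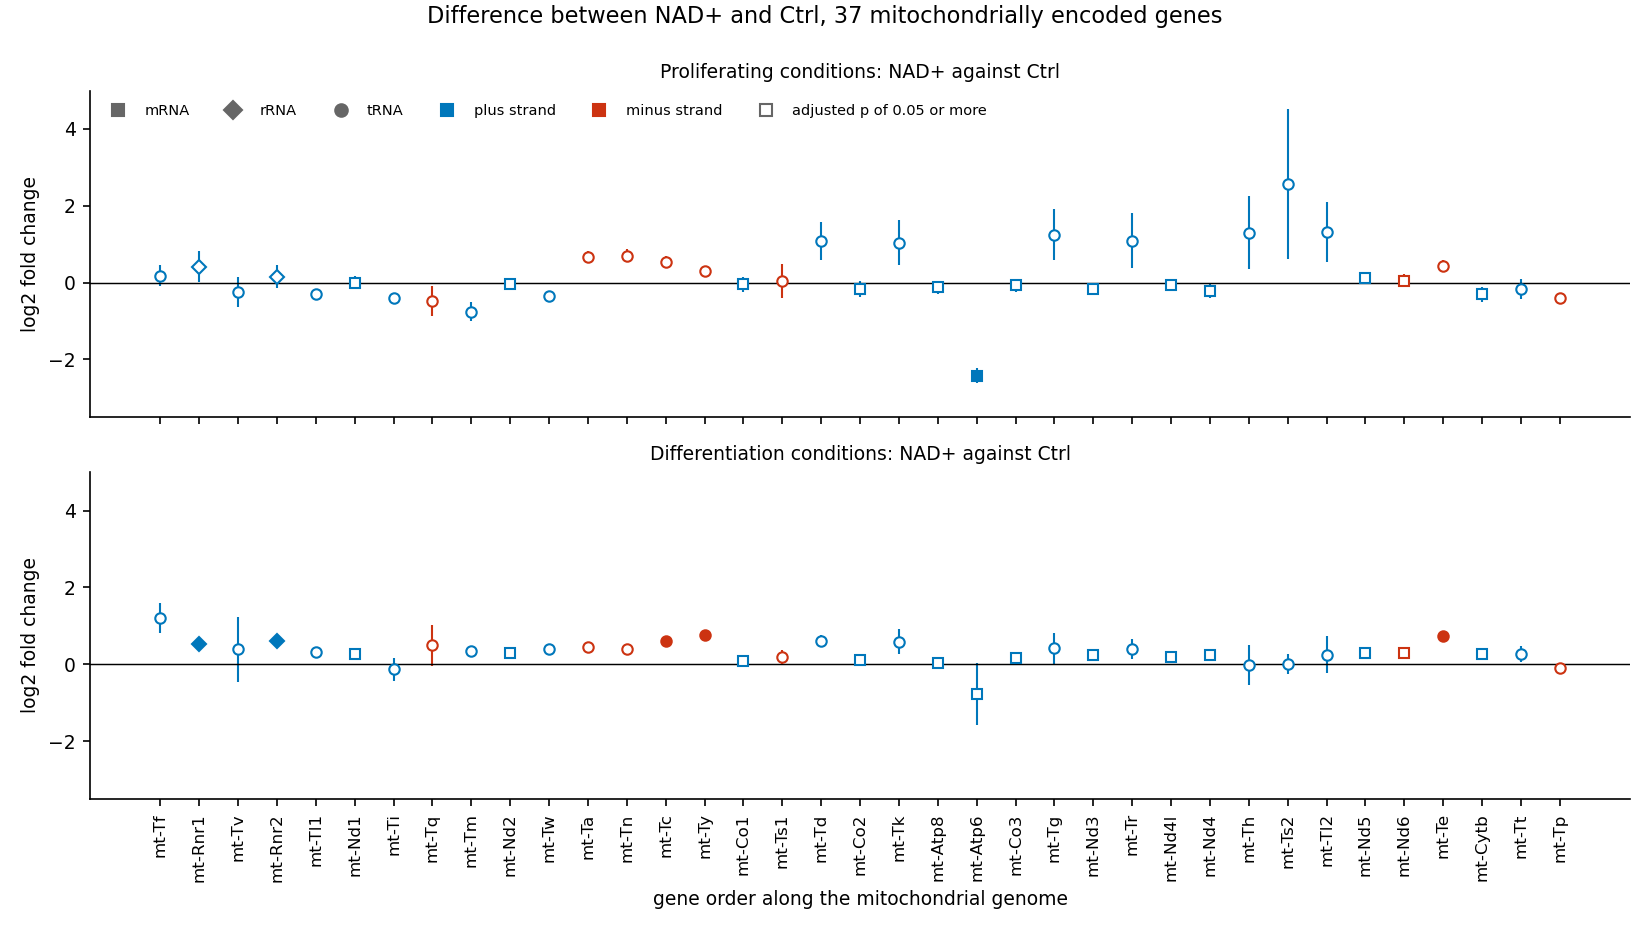
Log2 fold change of NAD+ against Ctrl (y axis, bars are SE) for the 37 genes in gene order, under proliferating conditions (top) and differentiation conditions (bottom), with filled symbols at an adjusted p under 0.05 and colours for the strand. Under proliferating conditions mt-Atp6 alone is filled, at -2.42, and under differentiation conditions mt-Rnr1, mt-Rnr2, mt-Tc, mt-Ty and mt-Te are filled, at 0.54 to 0.75.

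The 2 rRNAs were among the genes called. mt-Rnr1 (M:70-1024), the small subunit rRNA, was at 344, 406 and 456 FPKM in differentiation Ctrl and 589.6, 551 and 598 in differentiation NAD+, a log2 change of 0.54 ± 0.11 (limma adjusted p = 0.0346). mt-Rnr2, the large subunit rRNA, was at 315, 377 and 429 and 573, 542 and 577, a change of 0.60 ± 0.11 (adjusted p = 0.0293). In both, all NAD+ samples were above all Ctrl samples. Under proliferating conditions mt-Rnr1 was at 559, 232 and 197 in Ctrl and 538, 328 and 339.8 in NAD+, and mt-Rnr2 at 485, 253 and 242 and 461, 299 and 297. Replicate 1 was the high sample of both groups, and it was also the sample with high Rn7sk, Rmrp and Rpph1. The state difference of mt-Rnr1 was 0.44 in Ctrl and 0.56 in NAD+, neither called, and that of mt-Rnr2 was 0.26 in Ctrl and 0.71 in NAD+, the latter called (adjusted p = 0.0325). This call was kept in 16 of 24 alternatives and lost without proliferating NAD+ replicate 2 or 3, without any of the differentiation NAD+ samples, with no filter on low values, with unmoderated variances and with scaling to the other mitochondrial mRNAs, at adjusted p up to 0.298.

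Of the tRNAs, mt-Te, mt-Ty and mt-Tc were called for NAD+ under differentiation conditions. mt-Te, the tRNA for glutamate, was at 947, 930.5 and 971 FPKM in Ctrl and 1630.5, 1434 and 1691 in NAD+, a log2 change of 0.74 ± 0.07 (limma adjusted p = 0.00665). This was the only one of the 5 calls kept in all 17 alternatives, at 0.56 to 0.82. mt-Ty went from 211, 281 and 264 to 444, 362 and 464, at 0.75 (adjusted p = 0.0286), and mt-Tc from 246, 312 and 292 to 449, 377 and 454, at 0.59 (adjusted p = 0.0317). The groups of all 3 tRNAs were apart. The count of 5 fell to 1, with mt-Te alone, when replicate 1 or 2 of Ctrl or replicate 1 or 3 of NAD+ was left out, was 3 without Ctrl replicate 3, and was 6 without NAD+ replicate 2. The count of all genes called higher fell as well, from 445 to between 137 and 259 with a sample left out.

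Between states the tRNAs held the largest changes. mt-Ty rose from 22.6, 26.1 and 25.2 FPKM in proliferating Ctrl to the differentiation values above, 10.2 times the mean, with a log2 change of 3.34 ± 0.14 (limma adjusted p = 1.42e-08). In NAD+ it rose from 35.2, 27.9 and 28.2, 13.9 times, at 3.79. mt-Tc was at 42.98, 38.4 and 35.2 in proliferating Ctrl and 66.5, 46.9 and 57.6 in proliferating NAD+, and rose by 2.86 and 2.91 on the log2 scale. Their neighbours on the same strand were close behind. mt-Tn went from 88.8, 81.7 and 65.6 to 378, 416 and 387 in Ctrl and from 151, 107 and 128 to 578, 449 and 546 in NAD+, at 2.33 and 2.03. mt-Ta went from 58.5, 55.8 and 44.96 to 252, 263 and 248 in Ctrl and from 100.4, 71.9 and 81.2 to 384, 295 and 362 in NAD+, at 2.27 and 2.04. mt-Tw, the tryptophan tRNA next to this cluster on the plus strand, rose by 1.57 and 2.30.

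Further tRNAs were called in 1 or both comparisons. mt-Te rose by 1.48 in Ctrl and 1.79 in NAD+, and mt-Tp, for proline, by 1.41 and 1.71, both at levels of 90.9 FPKM or more in every sample. mt-Ti, mt-Td and mt-Ts1 rose as well, by 1.39, 2.27 and 1.41 in Ctrl and 1.65, 1.80 and 1.55 in NAD+, at levels of at most 17.4 FPKM. In NAD+ alone mt-Tm (1.499) and mt-Tl1 (0.46) were called, and whether these differ between treatments is given with the interaction below. mt-Tf, the phenylalanine tRNA, fell by 1.31 on the log2 scale in Ctrl, from 4.16, 3.10 and 2.19 to 0.98, 1.86 and 0.86 FPKM, a call lost without both proliferating replicates 1. The 9 remaining tRNAs were not called in either comparison, with log2 changes from -0.41 to 1.34 in Ctrl and from -2.49 to 1.07 in NAD+.

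The state difference was also counted by strand, a grouping chosen after the values were seen. Of the 9 minus-strand genes 8 were called higher in Ctrl and 8 in NAD+, the exception each time being mt-Tq, and their median log2 change was 1.48 and 1.79. Of the 28 plus-strand genes 11 and 16 were called higher, with medians of 0.51 and 0.65. Among tRNAs alone, 7 of 8 on the minus strand and 3 of 14 on the plus strand were called higher in Ctrl, and 7 and 5 in NAD+. Over all genes tested, 25.0% were called higher in Ctrl and 20.8% in NAD+. Calls also depend on the SE. The plus-strand mt-Tg, mt-Tr and mt-Tl2, at low levels, rose by 1.29 ± 0.61, 1.34 ± 0.60 and 1.19 ± 0.73 in Ctrl, uncalled. The minus-strand mt-Tp was called at 1.41 ± 0.10. Strand and level were not separated. The median log2 change of minus- and plus-strand tRNAs was 1.88 and 0.78 in Ctrl and 1.91 and 0.40 in NAD+. Altogether 11 genes kept their call in both comparisons under all 24 alternatives run for each, namely mt-Nd4, mt-Nd5, mt-Nd6, mt-Ti, mt-Tw, mt-Ta, mt-Tn, mt-Tc, mt-Ty, mt-Te and mt-Tp, and 7 of them lie on the minus strand. These alternatives include scaling to the other mitochondrial mRNAs, where mt-Ty was still higher by 2.68 in Ctrl and 2.86 in NAD+.

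**Figure D5:**
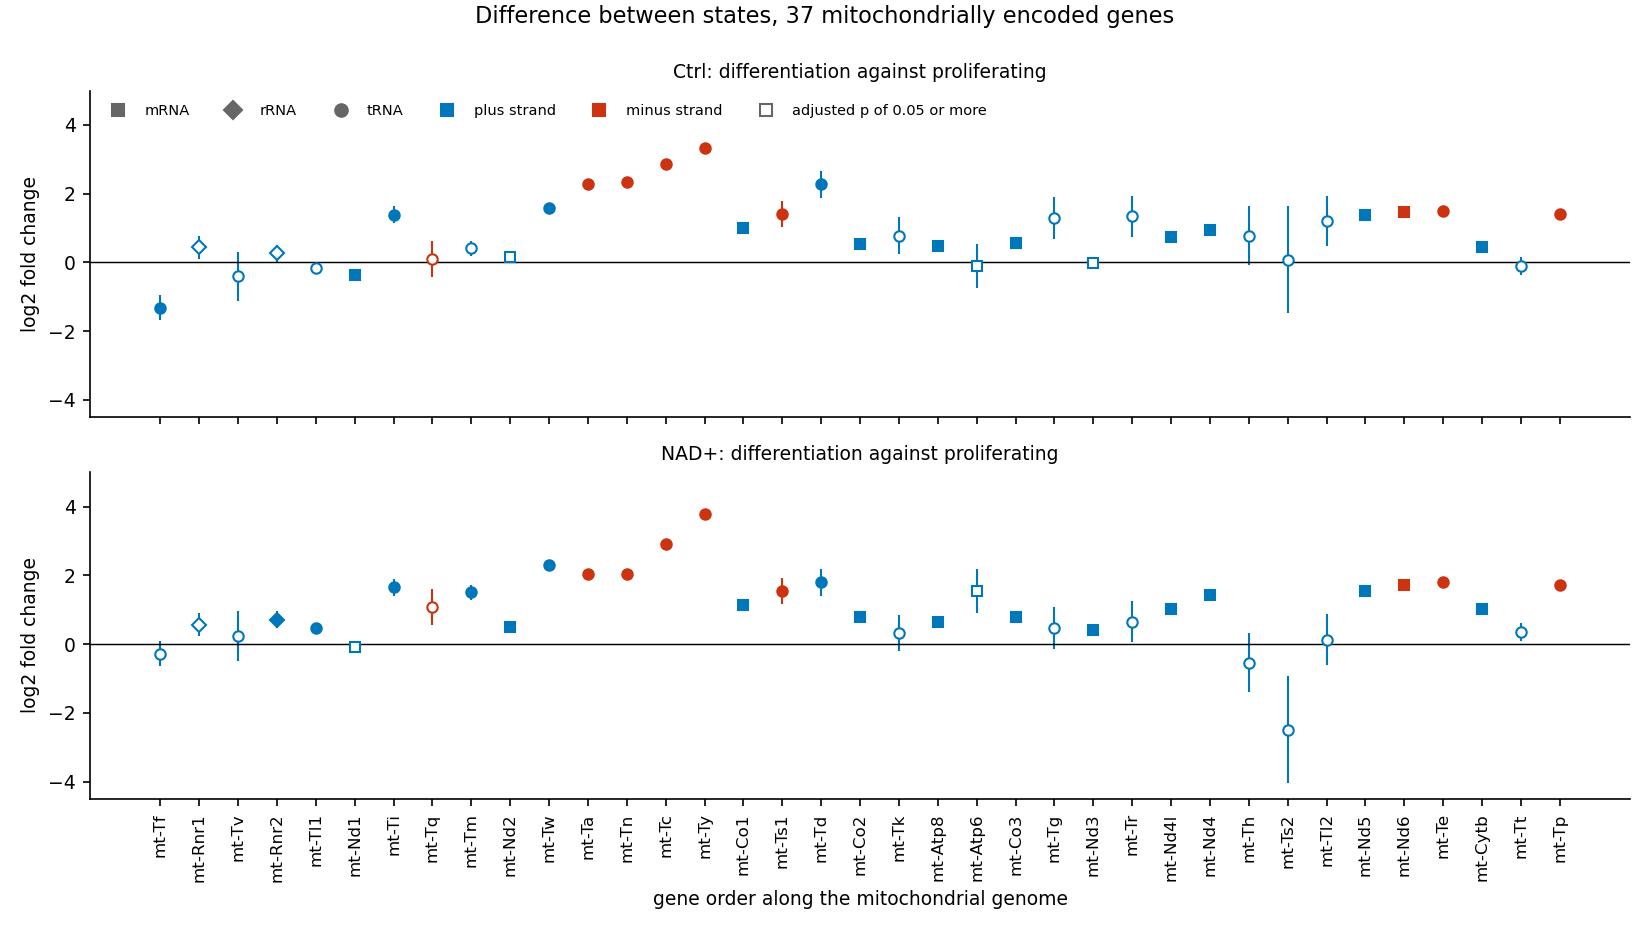
Log2 fold change of differentiation against proliferating conditions (y axis, bars are SE) for the 37 genes in gene order, in Ctrl (top) and NAD+ (bottom), with red for minus-strand and blue for plus-strand genes and filled symbols at an adjusted p under 0.05. The minus-strand tRNAs mt-Ta, mt-Tn, mt-Tc and mt-Ty lie at 2.27 to 3.34 in Ctrl and 2.03 to 3.79 in NAD+, while mRNAs lie between -0.37 and 1.72 over both panels. With quantile normalization or scaling to the other mitochondrial mRNAs, mt-Nd2, mt-Co2, mt-Atp8 and mt-Co3 turn negative in both.

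A single library held unusual tRNA values, singled out after its values were seen. In proliferating NAD+ replicate 1, mt-Ts2, a serine tRNA of 59 bases at M:11613-11671, was at 64.8 FPKM, against 0.18 to 0.33 in the other 11 samples. Its neighbours mt-Th and mt-Tl2 were at 77.6 and 53.0 in that sample, against at most 20.2 and 26.9 elsewhere. mt-Tg and mt-Tr were at 57.04 and 29.2, against at most 35.6 and 18.4 elsewhere. Of the mRNAs that lie among these tRNAs, mt-Nd3 (1172 FPKM) and mt-Nd4 (2793) were within the range of the other 5 proliferating samples, and mt-Nd4l (2696) and mt-Nd5 (2820.2) were the highest of the 6, by at most 1.33 times over the lowest sample of their group.

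Whether the difference between NAD+ and Ctrl itself differed between the states was tested as an interaction over all 12 samples. Of the 37 genes 0 were called in either direction by limma (6 at an unadjusted p under 0.05), where 0.221% and 0.246% of all genes were called with a more positive or more negative effect under differentiation conditions. The difference of mt-Atp6 was 1.64 ± 0.91 (adjusted p = 0.409). The lowest adjusted p belonged to mt-Tl1, at 0.62 (0.0732), and mt-Tw, at 0.73 (0.0856). Both were called with median-ratio scaling (0.0301 and 0.0361). mt-Tl1 was also called without proliferating Ctrl replicate 1 (0.0413), and mt-Tm, at 1.08 (0.139) with all samples, was called without proliferating NAD+ replicate 1 (1.38, 0.0190).

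Nuclear genes that serve the mitochondrial genome were set beside all genes tested, of which 25.0% were called higher and 31.6% lower between states in Ctrl and 20.8% and 37.6% in NAD+, with median log2 changes of -0.06 and -0.20. Of 32 genes for mitochondrial transcription and RNA processing, 1 was called higher and 18 lower between states in Ctrl, with a median log2 change of -0.34, and 3 and 21 in NAD+, with a median of -0.43. Among those called, Ptcd2, an RNA-binding protein of the organelle, fell by 1.23 in Ctrl and 1.40 in NAD+, Slirp, which stabilises mitochondrial mRNAs, fell by 0.96 in Ctrl (adjusted p = 0.0131), and Pde12, which trims poly(A) tails in the organelle, dropped by 1.03 in NAD+ (limma adjusted p = 0.00018). Of 13 genes for the maintenance of mitochondrial DNA, 2 rose and 4 fell in Ctrl, and 0 rose and 7 fell in NAD+, with medians of 0.03 and -0.34, so that the Ctrl count lay near the share over all genes. Among those that fell was Mgme1, a nuclease for mitochondrial DNA, at -0.90 and -1.29. The genes that rose in Ctrl were Polg2 and Dguok, at 0.70 and 0.58 (limma adjusted p = 0.00373 and 0.0139). Of 11 regulators of mitochondrial biogenesis, 1 rose and 5 fell in Ctrl and 1 and 6 in NAD+, with medians of -0.16 and -0.59. Ppargc1a, a coactivator that drives biogenesis, was at 11.4 ± 2.20 FPKM in proliferating and 4.26 ± 0.218 in differentiation Ctrl (SD, n = 3 each). All 21 nuclear genes of the ATP synthase and its assembly were called lower in both comparisons, with medians of -1.27 and -1.20, among them Atp5b, a catalytic subunit, at 448 ± 32.5 against 133 ± 6.02 FPKM in Ctrl.

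For NAD+ the same lists held 2 genes called higher and 3 lower, all under differentiation conditions, where 2.27% and 4.65% of all genes were called. Under proliferating conditions, where 0.0484% and 0.0968% of all genes were called, 0 genes of the 4 lists were called in either direction, with list medians from -0.19 to 0.20 beside 0.07 for all genes. Under differentiation conditions the RNA processing list had 1 gene called higher, Mterf1b (0.86, limma adjusted p = 0.0154), and 1 lower, Elac2, the enzyme that trims the 3′ ends of tRNAs (-0.35, 0.0323). The biogenesis list had Pprc1 called higher (0.62, 0.0349), the ATP synthase list had Atpaf1 and Atp5g2 called lower (-0.77, 0.0478 and -0.29, 0.0173), and the maintenance list had 0 called. Their medians lay between -0.18 and -0.09, beside -0.08 for all genes.

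The genes whose pattern over the 12 samples was most like that of mt-Atp6 were sought among 12891 nuclear genes with a mean of at least 1 FPKM, as the root mean square difference of centred log2(FPKM + 0.1). Opcml, at 0.875, and Ttll11, at 0.886, were among the nearest, against a median of 1.34 over all genes compared. mt-Atp6 itself lay 1.22 from its own mean on the same measure. Neither Opcml nor Ttll11 shared the split in differentiation Ctrl, where Opcml was at 2.74, 3.20 and 2.67 FPKM and Ttll11 at 1.85, 1.67 and 1.37.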

How the data were processed

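RNA-seq was measured in 12 samples of mouse aNSPCs, 3 in each of 4 groups taken from the sample titles. According to the study's methods, libraries were made with the NEBNext Ultra RNA kit, and the authors mapped reads to mm10 with Hisat2, kept uniquely mapped reads and counted them with FeatureCounts. The deposited values are FPKM per gene in 1 table per condition, each with 55401 genes, and the program that computed the FPKM and the strand setting are not given in the sources used here. Columns of fold changes, p-values and q-values for NAD+ against Ctrl were also deposited and were not used.

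From these values, log2(FPKM + 0.1) was tested with limma 3.58.1 in R 4.3.3 (limma-trend), for genes with a mean of at least 0.1 FPKM over the samples of a fit. NAD+ effects were fitted within each condition over 6 samples, and state effects and the interaction over all 12. P-values were adjusted by the Benjamini-Hochberg method over all genes tested and called under 0.05. The fits were tested on simulated data. Shares were compared by exact permutation tests, two-sided. Positions and sequences come from GENCODE M21, in which 55141 gene IDs were found, and nuclear copies from blastn 2.17.0 (at least 100 bases and 95% identity). Python 3.11.15 with scipy 1.17.1 was used. All mt- genes were described, with all 13 mRNAs named, and of the nuclear lists the called genes with the largest changes. The members and lists were chosen with earlier results of these data known. Alternatives were other added numbers, filters, scalings, unmoderated variances, a replicate block and leaving out each sample. Scaling to nuclear genes used the sum of all genes other than the mt- genes, so that it included the nuclear copies, whose share also differed between states. Leaving out both proliferating replicates 1, adding nuclear copies, weighting by length and leaving out samples for the tRNA share were chosen after seeing the data. Because FPKM holds no counts, no counting interval could be given. One gene among those most like mt-Atp6 is not reported here.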

Additional observations from a re-analysis of the deposited data

Results flagged for a closer look

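For 3 genes the NAD+ samples lay wholly below the Ctrl samples under proliferating conditions and wholly above them under differentiation conditions. mt-Tl1, a leucine tRNA, differed by -0.29 and 0.33 on the log2 scale, mt-Tw by -0.34 and 0.39, and mt-Cytb by -0.30 and 0.27, in that order. The difference between the states was tested as an interaction in limma and did not pass for any of them with all samples (adjusted p = 0.0732, 0.0856 and 0.259), while mt-Tl1 and mt-Tw passed with median-ratio scaling.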

How the results depend on the processing

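The log2 fold changes of 28 members were recomputed under the alternatives, and tRNAs called in no main fit were left out of this tally. Of 2996 such values, 2838 kept their side of the threshold and, where called, their direction, 105 of them changing sign with neither value called. Of the rest, 93 lost the call, 44 gained it and 21 reversed, and the cause was not tested. Depth is not known here, and at 3 samples against 3 an exact test cannot go below p = 0.1.

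For NAD+ under proliferating conditions, the count of 1 lower gene became 0 with no filter on low values, with unmoderated variances, without both replicates 1 and with nuclear copies added, and lay between 0 and 1 when each sample was left out. Over all genes, 18 were called lower in the main fit and 8 with no filter. The count was 0 with unmoderated variances, 1 without both replicates 1 and 17 with copies added. mt-Atp6 stayed at -2.42 with no filter (limma adjusted p = 0.0553) and unmoderated variances (0.0842), was -2.20 without both replicates 1 and -0.91 with copies added, and ranged from -2.59 to -2.22 over single samples left out. Under differentiation conditions the count of 5 higher genes became 2 with no filter, 14 with a minimum mean of 1 FPKM, 3 with quantile normalization and 1 with unmoderated variances, and ranged from 1 to 6 over samples left out. Over all genes, the main fit called 445 of 19611 higher. This became 330 of 29291, 514 of 12671, 580 of 19611 and 211 of 19611 in the same order, and 137 to 259 genes over samples left out.

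Between states in Ctrl, the count of 2 lower genes became 1 with no filter, median-ratio scaling, scaling to nuclear genes and without both replicates 1, and 7 when scaled to the 12 mitochondrial mRNAs other than mt-Atp6, and ranged from 1 to 2 over samples left out. In NAD+, 24 higher genes became 13 on the mitochondrial scale, and 0 lower genes became 6 there and 3 with quantile normalization. On the mitochondrial scale the calls over all genes were 2021 higher and 10014 lower in Ctrl, against 4884 and 6164 in the main fit. In NAD+ they were 1316 and 12270, against 4050 and 7336. With quantile normalization mt-Nd2, mt-Co2, mt-Atp8 and mt-Co3 reversed to -0.49, -0.014, -0.033 and -0.12 in Ctrl and to -0.64, -0.067, -0.066 and -0.28 in NAD+, and mt-Tl1 to 0.30 in Ctrl. On the mitochondrial scale the same 4 mRNAs reversed to -0.50, -0.13, -0.18 and -0.11 in Ctrl and to -0.44, -0.14, -0.29 and -0.16 in NAD+, mt-Cytb to -0.22 in Ctrl, and mt-Nd3, mt-Rnr2 and mt-Tl1 to -0.53, -0.23 and -0.48 in NAD+. The uncalled state difference of mt-Atp6 in NAD+ was called at 1.82 with median-ratio scaling, 1.68 with scaling to nuclear genes and 1.05 with copies added, and ranged from 0.83 to 1.92 over samples left out. For the interaction, 0 higher genes became 2 with median-ratio scaling and 2 without both replicates 1, and ranged from 0 to 1 over samples left out. Over all genes, 43 were called higher in the main fit, 70 with median-ratio scaling and 164 without both replicates 1.

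The NAD+ difference in share became -2.69 and 7.60 per 100 FPKM of nuclear protein-coding genes under proliferating and differentiation conditions, and 3.44 points under differentiation conditions with copies included. The ratio of spreads of mt-Atp6 became 14.0 on the mitochondrial scale and 2.35 summed with Gm10925, and ranged from 4.89 to 10.5 over samples left out.

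Replicate numbers are shared between groups. In their deviations from the group means, samples with the same number correlated at 0.112, 0.0218 and 0.0527 under proliferating conditions. Under differentiation conditions these values were 0.0413, 0.0431 and 0.0260. Samples with different numbers correlated at a mean of -0.0304 and -0.0184, in that order. Replicate 1 of both proliferating groups also shared high values of RNAs without a long poly(A) tail. What the numbers stand for was not tested, and the main fits left them out. With a replicate block the proliferating count of 1 lower gene became 0, with mt-Atp6 at -2.42 (limma adjusted p = 0.124), the differentiation count of 5 higher genes became 2, mt-Tw and mt-Te, and the state difference of mt-Atp6 in NAD+ was called at 1.54 (0.0347). Over all genes, the block left 0 called lower under proliferating conditions, against 18 in the main fit. Under differentiation conditions it left 275 called higher, against 445.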
